A study of Mus musculus with 30 samples.

Results

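The nuclear-encoded subunits of the 5 respiratory chain complexes were examined in mouse midbrain floor plate cells at 4 ages and in cultured adult brain spheres. Members were the genes whose symbols begin with Nduf followed by a, b, c, s or v and a digit, with Cox4 to Cox8, with Uqcr or with Atp5, plus Sdha, Sdhb, Sdhc and Sdhd. Pseudogene symbols ending in -ps and mitochondrially encoded genes were left out. The rule found 83 of 14997 genes in the captured cells and 89 of 26005 in the spheres, and 80 symbols stood in both tables. Of the sphere members 84 are annotated as protein coding, 4 (Ndufb4c, Ndufs6b, Ndufa11b and Cox6c2) as processed pseudogenes and 1 (Ndufb1) as a noncoding RNA, and these 5 were kept since the rule goes by symbol. Of these 5, Ndufb4c and Ndufb1 passed the filter on low counts and neither passed the test (edgeR adjusted p = 0.265 and 0.234). Complex I had 35 captured and 40 sphere members, complex II 4 and 4, complex III 8 and 8, complex IV 19 and 20, and complex V 17 and 17.

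Polyadenylated RNA was sequenced from laser-captured floor plate of Lmx1aCreERT2; R26TRAPC mice, in which Lmx1a, a gene of the floor plate, drives an inducible Cre. There were 4 libraries of embryonic day 11 (E11), 5 each of E13 and E18, and 6 of postnatal day 70 (P70). All captured groups share that genotype. The other libraries were adult in vitro sphere cultures, 5 named MB and 5 named FB, and the series design text speaks of ependymal spheres from the midbrain aqueduct and neurospheres from the lateral ventricle, while the labels give no genotype for the spheres and do not spell out MB or FB. No label ties a library to an animal or culture, so p-values measure the spread between libraries, which may be technical.

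Captured levels are in the deposited units, which behave like RPKM (reads scaled by gene length and library depth), and the depth estimated from their steps, in 1e6 reads, was 2.40 to 5.88, lowest at P70. Sphere levels are CPM (counts scaled to the same library total), from totals of 6327198 to 9291311 counts. Of 12 floor plate markers, 12 were listed at E11 with a summed level of 746 to 847 units, and 10 at P70 with 166 to 229 units, where Shh and Corin were not listed. In the spheres floor plate markers had a summed 188 to 215 CPM in MB and 141 to 164 CPM in FB (12 of 12 listed). Of the 5 that passed the filter on low counts, 2 were higher in MB and 0 lower. Of all genes tested in the spheres, 15.3% were higher and 14.3% lower. Lmx1b and Foxa1 were at 0 in every FB library. Between E13 and E18 markers of motile cilia went from a summed 40.8 to 82.7 units (6 of 12 listed) to 6401 to 9240 units (11 of 12 listed), and markers of cell cycle from 430 to 1007 units (14 of 14 listed) to 87.4 to 102 units (12 of 14 listed). Astrocyte markers went from 421 to 582 units (8 of 10 listed) to 2610 to 4540 units (10 of 10), and erythroid markers from 4973 to 17021 units (6 of 11) to 1.62 to 6.85 units (2 of 11). Their part in the subunit results was not tested. In bulk samples, fewer cells of a type and less RNA per cell cannot be told apart.

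The respiratory chain of the inner mitochondrial membrane passes electrons from NADH (complex I) and succinate (complex II) through complex III to oxygen at complex IV, and complexes I, III and IV pump protons that drive the ATP synthase, complex V. Most subunits are encoded in the nucleus and imported, and a small core of complexes I, III, IV and V is encoded in mitochondrial DNA. Several complex IV subunits exist as isoforms, with liver-type forms in most tissues, muscle-type forms in heart and skeletal muscle, and testis-type forms in germ cells. NRF1, ETS family factors such as GABP, and YY1 are known regulators of these genes through sites close to their transcription starts.

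Because most members moved together between E13 and E18, the sequence around their starts is shown first. RefSeq windows on GRCm38.p6, from 250 bases before to 50 after the start, were at hand for 69 members (74 windows). The letters searched on both strands were CCGGAAG for ETS factors, GGGCGG for SP1 and TATAAA for the TATA box, and for NRF1 and YY1 the 10 letters in capitals in their lines below. The ETS letters stood in 17 of the 74 member windows (23.0%), against 8.86% of all 32851 windows. The NRF1 letters stood in 5 (6.76%, against 0.971%) and the YY1 letters in 5 (6.76%, against 0.852%). The SP1 letters stood in 39.2% against 35.7%, and the TATA box letters in 12.2% against 13.6%. In 1 member window matches of different motifs overlapped. Matches are a description of letters and show neither binding nor a cause. The stretches below show 1 ETS match for each complex, then NRF1 and YY1 matches, each read 5′ to 3′ on the strand that spells the motif, which is in capitals. The first 5 lines are ETS matches of members that fell between E13 and E18.
Ndufs3 (complex I, chr2:90904732-90904758, minus strand): ccgcgtccgcCCGGAAGaagagtcact
Sdhd (complex II, chr9:50603879-50603905, plus strand): gaagcgtgaaCCGGAAGgcaggagacg
Uqcrh (complex III, chr4:116075064-116075090, plus strand): ggcgacctggCCGGAAGtgcggcatac
Cox6a1 (complex IV, chr5:115348958-115348984, plus strand): caccggcgcgCCGGAAGcggaaatggg
Atp5j (complex V, chr16:84835021-84835047, minus strand): gctgagggacCCGGAAGcacttaccct
Cox6a1 (NRF1 match, chr5:115349101-115349130, minus strand): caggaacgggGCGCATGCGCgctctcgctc
Ndufa11 (NRF1 match, chr17:56717692-56717721, plus strand): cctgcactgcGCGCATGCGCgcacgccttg
Atp5j (YY1 match, chr16:84835045-84835074, minus strand): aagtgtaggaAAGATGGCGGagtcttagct
Ndufs7 (YY1 match, chr10:80249463-80249492, plus strand): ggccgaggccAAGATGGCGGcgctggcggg
The ETS match began 27 bases before the start of Ndufs3, 46 before Sdhd, 10 before Uqcrh, 16 before Cox6a1 and 61 before Atp5j. The muscle-type Cox8b, which was not tested between E13 and E18, is shown as the 250 bases before its start (chr7:140900447-140900696, minus strand). None of the 5 motifs stood in them.
Cox8b: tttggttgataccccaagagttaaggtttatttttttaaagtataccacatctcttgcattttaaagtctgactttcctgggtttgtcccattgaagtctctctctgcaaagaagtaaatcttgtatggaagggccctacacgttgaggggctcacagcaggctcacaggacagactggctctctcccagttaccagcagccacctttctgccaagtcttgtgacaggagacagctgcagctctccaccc
The TATA box letters stood in the window of Cox8b only beyond these bases, after the start. Members that fell between E13 and E18 could also lack all 5 motifs in the 250 bases before the start, as Atp5c1 and Atp5g3 did.

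At E11 and E13 the members together made up 8.12% to 8.80% and 8.16% to 9.58% of all summed units of a library. At E18 they made up 5.52% to 7.40% and at P70 4.70% to 7.69%. The E18 libraries all lay below the E11 and E13 libraries, and the P70 range enclosed that of E18. The same step was seen in each complex, whose summed level was 23151 ± 2825 units at E13 and 16302 ± 2646 at E18 for complex I (SD, n = 5 and 5), and 13574 ± 618 and 7510 ± 1034 for complex V. The complex I sums of E13 (19825 to 26055 units) lay above those of E18 (12608 to 18873), and the complex V sums of E13 (12729 to 14172) above those of E18 (6268 to 8952).

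**Figure D1:**
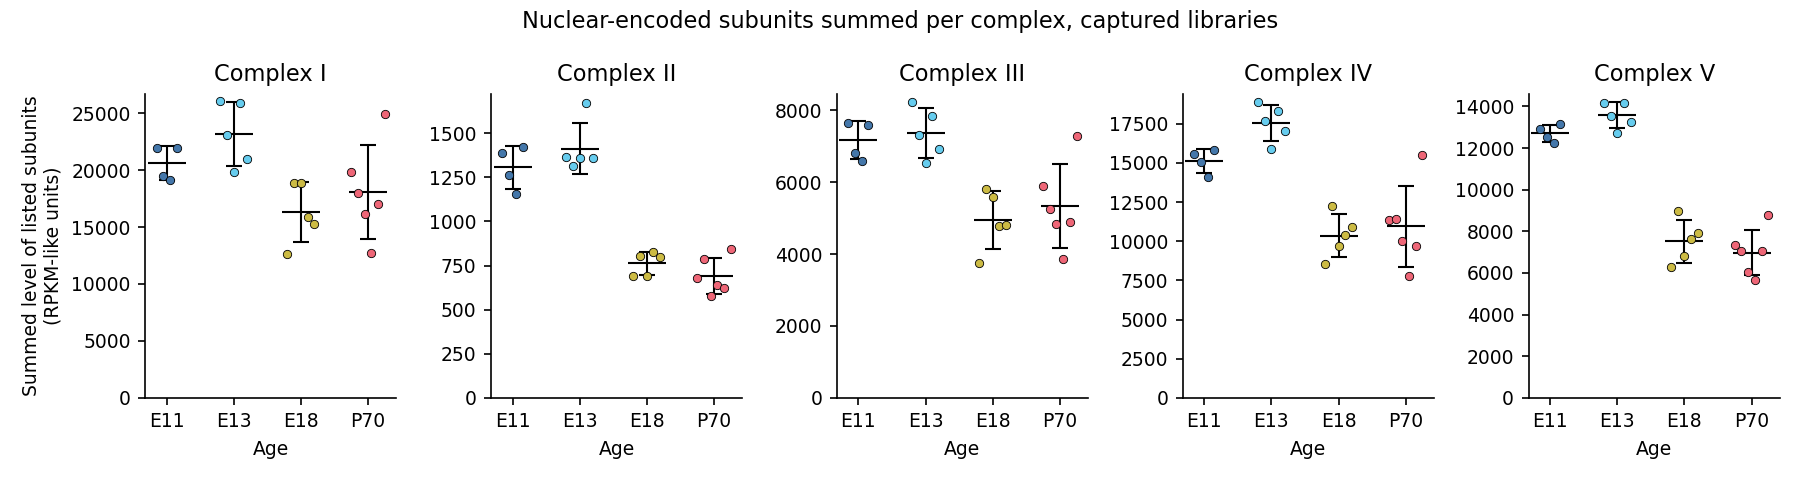
Summed level of the listed members of each complex (RPKM-like units) against age, 1 point per captured library, with the mean and SD as bars. In complex V the 5 E18 libraries lie between 6268 and 8952 units and the 5 E13 libraries between 12729 and 14172.

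Within a complex the levels spread widely, with each level per length and averaged over all 20 captured libraries. In complex I the accessory subunit Ndufa3 was highest at 1810 units and the iron-sulphur core subunit Ndufs1 lowest at 43.0 units. In complex II the iron-sulphur subunit Sdhb was highest at 495 units and the flavoprotein Sdha lowest at 111 units, though at P70 alone the mean of Sdhd (119 units) lay below that of Sdha (124 units) with overlapping libraries. Uqcrq was highest and the core protein Uqcrc2 lowest in complex III (1536 and 141 units), and Cox4i1 was highest in complex IV (2446 units). In complex V the F1 subunit Atp5e was highest (2232 units) and Atp5g2, a gene for the proton-carrying c subunit, lowest (5.34 units). Coding sequences near identical to those of another gene were found for 22 members, among them Atp5g2 (2 copies), Atp5l (8), Cox7c (2) and Ndufs5 (1). Their levels are uncertain, since reads may be shared between copies. Atp5l ranked 13 of 17 in complex V in the captured cells and 11 of 17 in the spheres, and Ndufs5 ranked 34 of 35 and 13 of 40 in complex I.

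Between E11 and E13 few members passed the test. The fitted difference was positive for 60 of the 80 members tested, against 5410 of all 11567 genes. Of 80 members listed at both ages, 3 rose and 2 fell, against 9.26% and 11.2% (20.4% together) of all 11567 genes tested, and the members' median log2 difference was 0.18 against -0.04 for all genes. With each library weighted, 21 rose and 4 fell, and with only the libraries of these 2 ages 16 rose and 2 fell. The isoforms of complex IV held both falls. For all 5 members called the 2 ages did not overlap, against 86.4% of all 2364 genes called.

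Ndufc2 and Ndufb3, accessory subunits of the membrane arm of complex I, rose. Ndufc2 was at 401 to 427 units in the 4 E11 libraries and at 594 to 715 in the 5 E13 libraries (log2 difference 0.66, SE 0.16, limma adjusted p = 0.00641). Ndufb3 was at 314 to 384 units at E11 and 491 to 617 at E13, again with no overlap (log2 difference 0.63, adjusted p = 0.0121). Atp5s, also called factor B, a protein linked to the ATP synthase but not a core subunit of it, went from 7.82, 14.7, 12.7 and 11.0 units to 22.9, 16.5, 21.0, 21.1 and 18.3 (log2 difference 0.76, adjusted p = 0.0249). Leaving out any of E11 replicates 1 and 4 and E13 replicates 1 and 3 ended its call.

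The muscle-type isoform Cox7a1 and the testis-type isoform Cox6b2 fell. Cox7a1 was at 21.2, 11.7, 26.0 and 12.2 units at E11 and at 10.3, 3.71, 6.08, 2.01 and 4.25 at E13 (log2 difference -1.65, SE 0.45, adjusted p = 0.0126). The 2 ages did not overlap, and the call was lost without E11 replicate 3. Cox6b2 was at 107, 72.3, 56.4 and 78.6 units at E11 and at 35.2, 27.9, 42.7, 36.4 and 40.3 at E13 (log2 difference -1.06, SE 0.27, adjusted p = 0.0073). Of the 11 usual isoforms of complex IV, 0 passed the limma test in either direction, with differences between 0.07 and 0.40. Muscle markers had a summed 25.0 to 105 units at E11 (4 of 8 listed) and 17.8 to 23.6 at E13 (5 of 8 listed), with Ckm, Myh3 and Des not listed at either age.

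Between E13 and E18 the members fell as a group. Of 80 tested, 54 fell and 2 rose, where 24.8% of all 11797 genes tested fell and 22.2% rose (47.0% together). The median log2 difference was -0.67 for the members and -0.04 for all genes. The 54 falls took in 23 of 35 members of complex I, 3 of 4 of complex II, 6 of 8 of complex III, 10 of 16 of complex IV and 12 of 17 of complex V. Median differences were -0.57, -0.74, -0.735, -0.72 and -0.94 from complex I to V. The fitted difference was negative for 76 of the 80 members, and in 46 of the 56 members called (82.1%) the 2 ages did not overlap, as in 75.4% of all 5543 genes called.

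**Figure D2:**
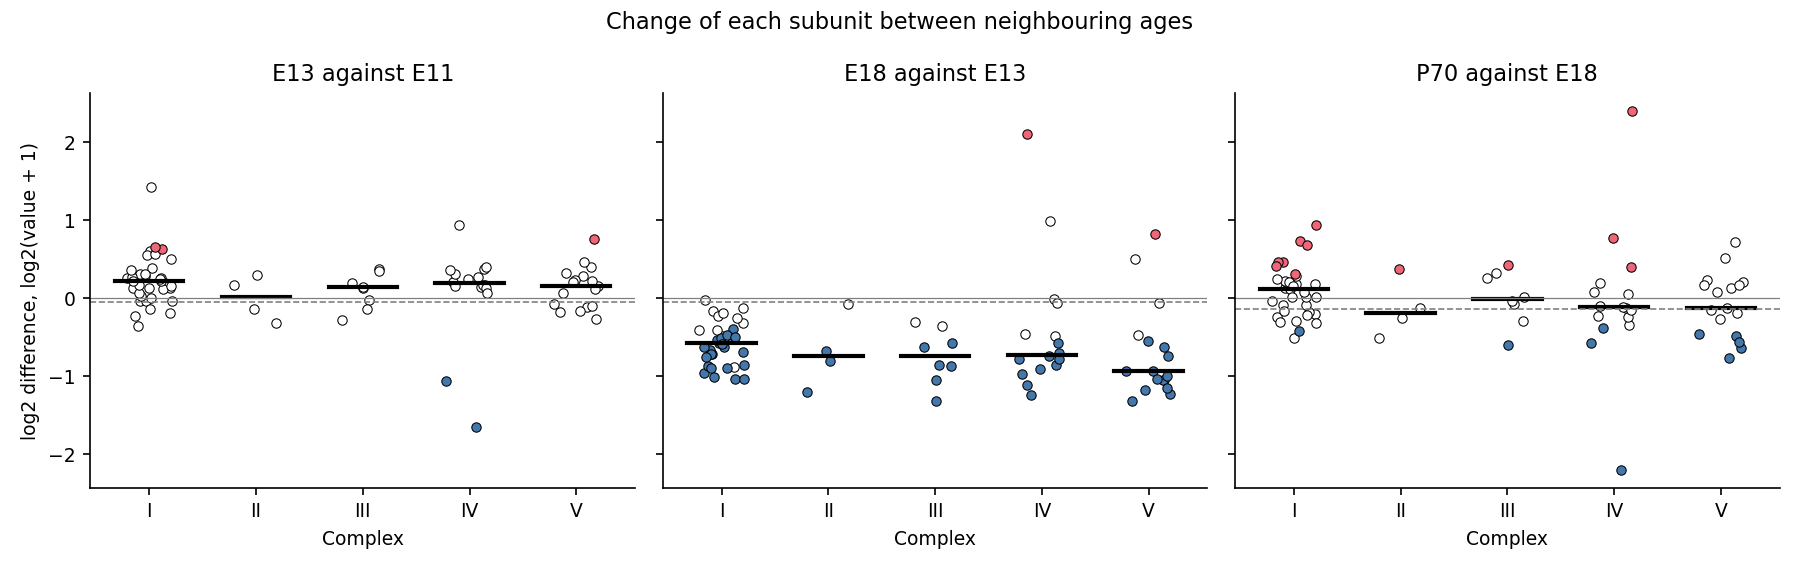
log2 difference of each member on the log2(value + 1) scale, by complex, for E13 against E11, E18 against E13 and P70 against E18. Red points passed the test as higher, blue as lower and white did not pass, black bars are medians of the members and the dashed line is the median of all genes. The middle panel holds 54 blue and 2 red points.

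In complex I, all 7 core subunits, which carry the flavin and the iron-sulphur clusters, fell at E18, by 0.46 to 0.90 on the log2 scale, together with 16 of 28 accessory subunits. Ndufs1, the largest core subunit, was at 59.9, 57.5, 68.2, 49.3 and 52.2 units at E13 and at 35.6, 35.2, 32.5, 40.9 and 40.3 at E18. The libraries of the 2 ages did not overlap (log2 difference -0.62, SE 0.13, adjusted p = 0.000593). The call of the core subunit Ndufs8 (log2 difference -0.46, adjusted p = 0.0467) was lost when any of 7 single libraries was left out. Among accessory subunits the smallest p belonged to Ndufa6, at 811 to 1016 units at E13 and 387 to 564 at E18 (log2 difference -0.96, adjusted p = 1.97e-05), and to Ndufs4, at 217 to 257 and 96.4 to 128 units (-1.04, adjusted p = 2.03e-05). Ndufs4 is needed for a stable and active complex I. Ndufb9 fell by 0.86 on the log2 scale.

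In complex II, which has no mitochondrially encoded subunit, the subunits did not move alike. Sdhb was at 715, 668, 654, 1002 and 731 units at E13 and at 245, 344, 377, 341 and 325 at E18 (log2 difference -1.20, SE 0.18, adjusted p = 1.49e-05). The membrane anchors Sdhc and Sdhd fell too, by 0.80 and 0.68 on the log2 scale (adjusted p = 0.0156 and 0.000341), and the call of Sdhc was lost without E18 replicate 3 (highest adjusted p = 0.103). Sdha, the catalytic flavoprotein, was at 85.1, 94.1, 115, 108 and 100 units at E13 and at 84.5, 103, 106, 98.2 and 85.9 at E18. The 2 ages overlapped for Sdha (log2 difference -0.07, SE 0.12, adjusted p = 0.668).

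In complex III the Rieske iron-sulphur protein Uqcrfs1 had the most negative difference of all members, from 404, 375, 567, 671 and 584 units at E13 to 194, 223, 154, 236 and 218 at E18. The groups were far apart (log2 difference -1.32, SE 0.17, adjusted p = 1.45e-06). The core protein Uqcrc2 (-0.87) and the hinge protein Uqcrh (-1.05) fell as well, with adjusted p = 1.66e-05 and 6.62e-05. The small subunits Uqcrq (-0.35, adjusted p = 0.164) and Uqcr11 (-0.30, adjusted p = 0.145) did not pass.

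In complex IV, 9 of the 11 usual isoforms fell and 0 rose. Cox4i1, the regulatory subunit with the highest level, was at 3010, 2815, 2952, 3211 and 3439 units at E13 and at 1395, 2103, 1609, 1794 and 1689 at E18 (log2 difference -0.85, SE 0.14, adjusted p = 4.99e-05). Cox6a1 (-0.98) and Cox5a (-1.11) fell further, and Cox5b (-0.45, adjusted p = 0.102) and Cox7b (-0.49, adjusted p = 0.133) did not pass. Cox7a2l, which helps join complexes III and IV into supercomplexes, fell from 380 to 495 units to 183 to 273 units (-0.91, adjusted p = 1.43e-05). Ndufa4, now counted as a complex IV subunit, fell from 1632 to 2063 units to 924 to 1277 units (-0.74, adjusted p = 0.000817).

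Its paralogue Ndufa4l2, a hypoxia-inducible protein known to lower complex I activity, went the other way. Ndufa4l2 was at 2.54, 1.26, 1.23 and 3.85 units at E11, at 4.91, 6.39, 3.19, 3.43 and 7.53 at E13, at 23.3, 22.2, 26.5, 32.3 and 18.9 at E18 and at 2.304, 7.01, 8.26, 12.05, 7.61 and 0 at P70. Every E18 library lay above every library of the other ages. The rise at E18 had a log2 difference of 2.11 (SE 0.48, adjusted p = 0.00119) and the fall at P70 one of -2.20 (SE 0.47, adjusted p = 0.000754), and both passed in every alternative run. The E18 level rested on an estimated 74.2 to 127 reads per library. As a share of Ndufa4 and Ndufa4l2 together it was 0.273% ± 0.095 at E13 and 2.23% ± 0.67 at E18 (SD, n = 5 and 5, two-sided exact permutation p = 0.00794, the smallest these groups allow, adjusted p = 0.0185 over 21 isoform shares tested). At P70 the share was 0.981% ± 0.825 (n = 6) with a range that overlapped that of E18, and the difference from E18 did not pass (two-sided exact permutation p = 0.0281, adjusted p = 0.0537).

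Markers of blood vessels, cells in which Ndufa4l2 is known to be expressed, had a summed 90.6 to 135 units at E13 (8 of 10 listed) and 77.9 to 132 at E18 (7 of 10 listed, with Flt1, Cdh5 and Tek not listed). Of 7 of these markers tested, 4 fell (57.1%) and 1 rose (14.3%), with a median of -1.106. Between E13 and E18, 24.8% of all genes fell and 22.2% rose. Of 13 genes of a list of hypoxia-response genes, 8 rose (61.5%) and 1 fell (7.69%) at E18, with a median difference of 0.71. Bnip3, a mitophagy receptor, rose from 29.4 to 34.2 units to 86.1 to 175 units (log2 difference 1.92, adjusted p = 8.01e-07). Ndrg1 rose by 1.87 and Hif1a, the oxygen-regulated factor itself, fell by 0.98 on the log2 scale. Between E18 and P70, 4 of 13 rose (30.8%) and 7 fell (53.8%), where 16.8% of all genes rose and 23.9% fell. Ldha (lactate dehydrogenase A) fell from 512 to 801 units to 95.2 to 153 units (-2.50, limma adjusted p = 5.18e-10), and Vegfa fell too (-2.08). Slc2a1 (1.81, limma adjusted p = 2.86e-06) and Epas1 (1.68, limma adjusted p = 3.65e-06) rose. The part of vessel cells or of a hypoxia response in the levels of Ndufa4l2 was not tested.

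In complex V all 5 subunits of the catalytic F1 head fell at E18. Atp5b, the catalytic beta subunit, was at 847, 902, 1233, 992 and 1051 units at E13 and at 346, 441, 523, 402 and 425 at E18 (log2 difference -1.23, SE 0.13, adjusted p = 1.17e-07, the smallest of all members). The gamma subunit Atp5c1 (-1.31) and the alpha subunit Atp5a1 (-1.05) fell with it, at adjusted p = 2.72e-06 and 4.81e-07. Of 10 subunits of the membrane part and stalk, 7 fell, among them Atp5j (-1.04) and Atp5f1 (-1.17), and 0 rose. Atp5s rose again, to 41.3, 37.0, 28.8, 42.8 and 31.8 units (log2 difference 0.83, adjusted p = 0.00419), and its 5 E18 libraries lay above all of E11 and E13. The c subunit genes Atp5g1, Atp5g2 and Atp5g3 encode the same mature protein, and of these only Atp5g3 passed at E18 (-0.94, adjusted p = 0.00309).

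For 69 member windows the same gene symbol was tested between E13 and E18 and did not rise. Of these, 48 belonged to members that fell and 21 to members that did not pass. The window of Atp5f1, which fell, goes under the other symbol of that gene, Atp5pb, and was not counted. It held the SP1 letters and none of the others. The ETS letters stood in 15 of the 48 (31.2%) and in 1 of the 21 (4.76%). For YY1 the counts were 5 (10.4%) and 0, for NRF1 3 (6.25%) and 2 (9.52%), for SP1 17 (35.4%) and 9 (42.9%), and for the TATA box 5 (10.4%) and 1 (4.76%). These shares were looked at after the calls were known and were not tested, and a member that did not pass may still differ.

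Other mitochondrial lists are set against the 24.8% of all genes that fell and the 22.2% that rose between E13 and E18. Assembly factors, which build the complexes, had 14 of 41 lower (34.1%) and 3 higher (median -0.44), with the copper chaperones Cox17 (-1.34) and Cox19 (-1.34) among those that fell and Lyrm7 (1.21) and Cox10 (1.08) among those that rose. Enzymes of the TCA cycle and pyruvate dehydrogenase had 11 of 17 lower (64.7%) and 2 higher (median -0.55), with malate dehydrogenase Mdh2 (-0.97) falling and Ogdh (0.58) rising. Coenzyme Q synthesis genes had 6 of 11 lower (54.5%) and 1 higher (-0.87). Of 11 regulators of mitochondrial biogenesis 5 fell and 0 rose, among them Nrf1 (-0.69, adjusted p = 0.00518), the factor whose letters were searched above. Of 10 carriers and uncoupling proteins 5 fell and 2 rose, the ADP/ATP carrier Slc25a5 from 491 to 795 units to 122 to 242 units (-1.84, adjusted p = 1.97e-06) and the uncoupling protein Ucp2 in the other direction, from 6.99 to 11.9 units to 19.2 to 51.9 units (1.82, adjusted p = 1.68e-06). Ribosomal protein genes, a list added after the values were seen, moved further. Of 87 cytosolic ribosomal proteins 72 fell (median -1.565), and of 77 mitochondrial ones 66 fell (median -0.89).

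Between E18 and P70 the members did not move together. Of 80 tested, 12 rose and 10 fell, against 16.8% and 23.9% (40.7% together) of all 12353 genes tested, and the median was 0.01 for members and -0.14 for all genes. This split depended on the scaling: with median-of-ratios factors 18 rose and 1 fell, the median of all genes moved to 0.01 and that of the members to 0.19, and the share of higher calls among all genes went from 41.3% to 54.7%. By complex, 7 of 35 members of complex I rose and 1 fell, and 0 of 17 members of complex V rose and 5 fell. The 20% higher in complex I and the 29.4% lower in complex V stand against 16.8% and 23.9% of all genes. Complex II had 1 of 4 higher and 0 lower, complex III 1 of 8 higher and 1 lower, and complex IV 3 of 16 higher and 3 lower. This comparison and the one before it share the E18 libraries, so a value high or low at E18 enters both. Between E18 and P70 motile cilia markers went from a summed 6401 to 9240 units to 16192 to 26409 (11 of 12 listed at both ages), and astrocyte markers from 2610 to 4540 units to 6015 to 8394 (10 of 10). Mature neuron markers were at 463 to 1489 units and then 358 to 629 (12 of 12), with overlapping ranges, and oligodendrocyte markers at 153 to 210 (7 of 10) and then 385 to 996 (9 of 10). Floor plate markers went from 558 to 793 units (11 of 12) to 166 to 229 (10 of 12). Their part in the subunit results was not tested.

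The rises that passed in all 19 alternatives were those of Cox7a1, Ndufb10, Cox8a, Ndufv1 and Ndufs7. Ndufb10, an accessory subunit with a disulphide fold, was at 436, 555, 687, 471 and 414 units at E18 and at 1058, 962, 886, 706, 984 and 1345 at P70 (log2 difference 0.95, SE 0.17, adjusted p = 0.000131). All P70 libraries lay above the other 14 captured libraries. The core subunits Ndufv1, which binds NADH, and Ndufs7 rose by 0.68 and 0.74 on the log2 scale (adjusted p = 0.00131 and 0.00143). The liver-type isoform Cox8a rose from 857 to 1227 units to 1305 to 2990 (0.78, adjusted p = 0.000809). Sdha rose from 84.5 to 106 units to 108 to 142 (0.38, adjusted p = 0.0139), and Sdhb, Sdhc and Sdhd did not pass.

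Cox7a1 had the largest rise of any member. It was at 8.75, 13.9, 14.3, 5.81 and 11.0 units at E18 and at 83.0, 39.3, 86.6, 18.7, 51.2 and 143 at P70, above the whole E18 range (log2 difference 2.40, SE 0.41, adjusted p = 9.43e-05). As a share of Cox7a1 and its liver-type partner Cox7a2 it was 1.77% ± 0.695 at E11 (n = 4), 0.474% ± 0.255 in the 5 E13 libraries, 1.65% ± 0.47 in the 5 E18 libraries and 9.46% ± 3.59 at P70 (SD, n = 6; two-sided exact permutation p = 0.00433 for P70 against E18, adjusted p = 0.0185). Muscle markers had a summed 158 to 318 units at E18 (3 of 8 listed) and 47.7 to 96.7 at P70, from 2 of 8 listed genes, with Ckm, Acta1, Myh3, Tnni2, Des and Actc1 not listed. The other muscle-type isoforms were almost absent: Cox6a2 was at 25.2 units in P70 replicate 3 and at 0 in the other 5 P70 libraries, and Cox8b was above 0 in 2 of 6.

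**Figure D3:**
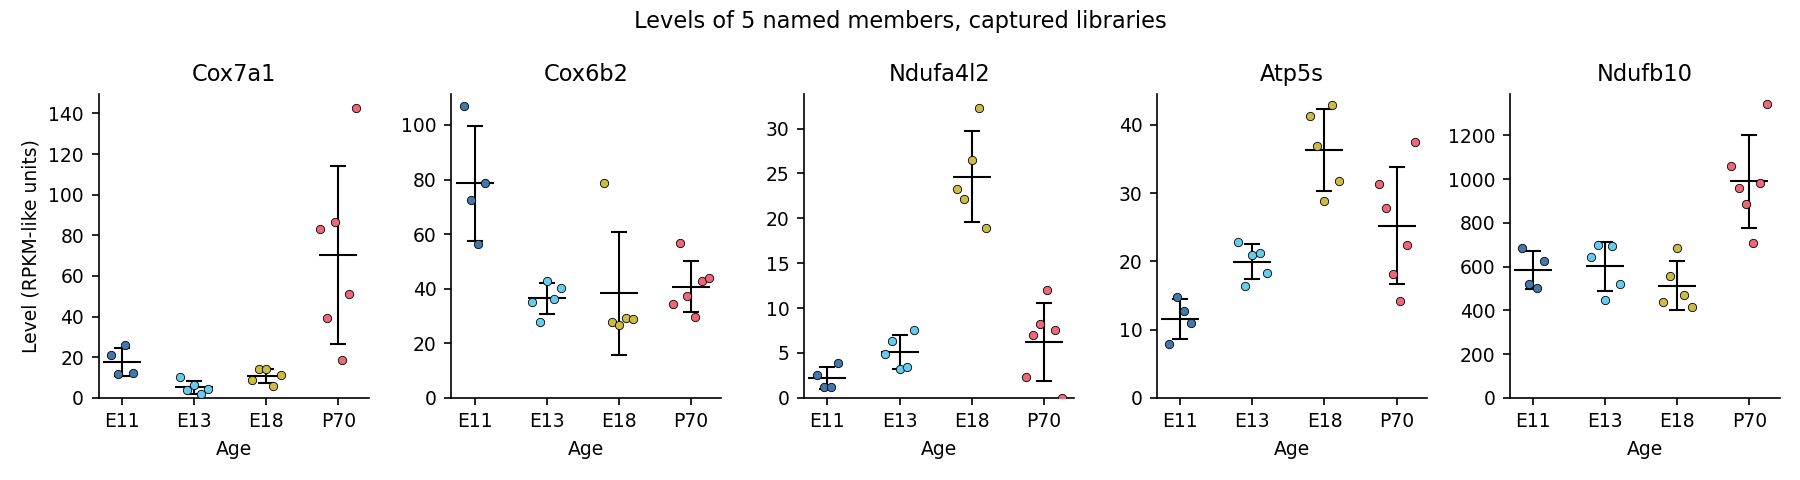
Level (RPKM-like units) of Cox7a1, Cox6b2, Ndufa4l2, Atp5s and Ndufb10 by age, 1 point per captured library, with mean and SD as bars. Ndufa4l2 lies between 18.9 and 32.3 units at E18 and at most at 12.05 at the other ages, and Cox7a1 reaches 143 units at P70.

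The members that fell at P70 included Uqcrfs1 (to 116 to 145 units, log2 difference -0.59, adjusted p = 0.00504), Ndufa4 (-0.57), Atp5f1 (-0.45) and Atp5g1 (-0.77), but each of these calls was lost with median-of-ratios scaling (adjusted p = 0.0563, 0.0766, 0.166 and 0.0816). Cox6b2 was at 29.5 to 56.6 units at P70, above 4 of the 5 E18 libraries (26.8 to 29.2) and below E18 replicate 1 (78.7), and did not pass (log2 difference 0.20, adjusted p = 0.546). Cox4i2, the lung-type and hypoxia-inducible partner of Cox4i1, was at 0 to 12.8 units over all ages and passed in 0 of the comparisons between ages. Cox7b2 was listed at E18 alone, with 6.11 units in replicate 5 and 0 in the other 4 libraries. Of 41 assembly factors 7 rose (17.1%) and 8 fell (19.5%), shares near the 16.8% and 23.9% of all genes, with Cox17 changed by 1.45 (adjusted p = 2.62e-07) and Ttc19, a complex III factor, by -0.97 on the log2 scale. Citrate synthase (Cs) fell by 0.78 and Idh3a rose by 0.74 on the log2 scale.

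Across the whole span, P70 against E11, 44 of 81 members fell and 5 rose, against 40.1% and 24.5% (64.6% together) of all 11117 genes tested, with medians of -0.52 and -0.30. With median-of-ratios scaling 28 fell and 8 rose, with medians of -0.26 and -0.07, and the share of higher calls among all genes went from 38.0% to 48.0%. By complex the falls took in 12 of 35 members of complex I, 3 of 4 of complex II, 7 of 8 of complex III, 9 of 17 of complex IV and 13 of 17 of complex V. Atp5b was at 1026 to 1098 units at E11 and at 329 to 439 at P70 (log2 difference -1.52, SE 0.13, adjusted p = 2.35e-09). The 5 that rose were Atp5s (1.02), Ndufb10 (0.75), Cox7a1 (1.74), Ndufb3 (0.38) and Atp5sl (1.24), the last a protein linked to complex I assembly in spite of its name. Atp5s, Cox7a1 and Ndufb3 overlapped between the 2 ages. Of the 49 members called, 32 (65.3%) did not overlap, against 76.4% of all 7183 genes called.

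In the spheres the nuclear members were higher in MB than in FB. Of 89 members 81 passed the filter on low counts, and of these 35 were higher and 1 lower, where 15.3% of all 12886 genes tested were higher and 14.3% lower (29.6% together). The median log2 difference was 0.17 for the members and -0.02 for all genes, so most differences were small. Of 79 tested members with at least 10 CPM in both groups 33 were higher and 1 lower. The summed members took 2.66% to 2.89% of the counts in MB and 2.23% to 2.44% in FB, without overlap. Of the 36 members called, 31 (86.1%) did not overlap between MB and FB, against 67.7% of all 3818 genes called. By complex 16 of 37 members of complex I, 3 of 4 of complex II, 3 of 8 of complex III, 6 of 15 of complex IV and 7 of 17 of complex V were higher.

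All 7 core subunits of complex I were higher, by 0.13 to 0.44, with Ndufv1 at 296, 313, 301, 287 and 295 CPM in MB and 246, 213, 221, 205 and 196 in FB (log2 difference 0.44, SE 0.06, edgeR adjusted p = 2.14e-05). Of 29 accessory subunits 9 were higher, and Ndufv3, which sits by the flavin site, had the smallest p among them, at 139 to 154 CPM in MB and 89.6 to 104 in FB (0.58, adjusted p = 3.44e-06). All 5 F1 subunits of complex V were higher, against 2 of 11 of its membrane part and stalk. Atp5b was at 3254 to 3495 CPM in MB and at 2456 to 2779 in FB (0.33, SE 0.04, adjusted p = 2.18e-06). The complex III core proteins Uqcrc1 (0.43) and Uqcrc2 (0.42) had adjusted p = 6.94e-06 and 1.02e-05. Of complex II, Sdha (0.20), Sdhb (0.17) and Sdhc (0.28) passed.

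All 3 tissue isoforms of complex IV that passed the filter were higher in MB, while 3 of 11 usual isoforms were. The muscle-type Cox8b was at 16.5, 19.6, 23.3, 18.6 and 21.3 CPM in MB and at 2.85, 2.35, 4.63, 2.97 and 2.41 in FB, groups far apart (log2 difference 2.67, SE 0.25, adjusted p = 8.55e-08). Cox8b and Cox7a1 were below 10 CPM in FB, and Cox7a1 was at 6.21, 6.58, 5.22, 6.16 and 5.37 CPM in MB and at 1.05, 1.18, 3.23, 1.42 and 2.29 in FB (1.64, SE 0.41, adjusted p = 0.00452). Cox6b2 was at 29.6 to 36.3 CPM in MB and 19.7 to 24.8 in FB (0.56, adjusted p = 0.00459). Per length, Cox8b made 5.25% ± 0.60 of Cox8a and Cox8b in MB and 0.871% ± 0.225 in FB (SD, n = 5 and 5, two-sided exact permutation p = 0.00794, adjusted p = 0.0185). Cox7a1 made 3.01% ± 0.22 of Cox7a1 and Cox7a2 in MB and 1.04% ± 0.47 in FB, with the same p-values. Muscle markers had a summed 14.5 to 20.4 CPM in MB and 4.97 to 12.04 in FB, with 8 of 8 listed, and their part in these differences was not tested. Ndufa4l2 and Cox4i2 were below the filter, at 0.867 to 1.42 and 0.158 to 0.867 CPM in MB. The 1 lower member was Cox7a2l (-0.16, adjusted p = 0.0416), whose groups overlapped and whose call was lost in 11 of 15 alternatives.

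The 13 mitochondrially encoded subunits went in the opposite direction, with 0 higher and 7 lower (53.8%) in MB and a median log2 difference of -0.395. Among all genes tested 15.3% were higher and 14.3% lower. They took 3.85% to 4.74% of the counts in MB and 4.14% to 8.01% in FB, where 2 of 5 FB libraries lay within the MB range. mt-Atp6, a proton channel subunit of complex V, was at 3322, 2619, 5714, 3701 and 3427 CPM in MB and at 4434, 3883, 8968, 8402 and 11097 in FB (log2 difference -0.998, SE 0.23, adjusted p = 0.00241). For mt-Co2 of complex IV the log2 difference was -0.50 (adjusted p = 0.00608). Nuclear members per mitochondrially encoded count came to 0.579 to 0.751 in MB and 0.278 to 0.569 in FB. With mitochondrially encoded genes taken out before scaling, an alternative chosen after seeing the data, 39 nuclear members were higher and 1 lower.

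**Figure D4:**
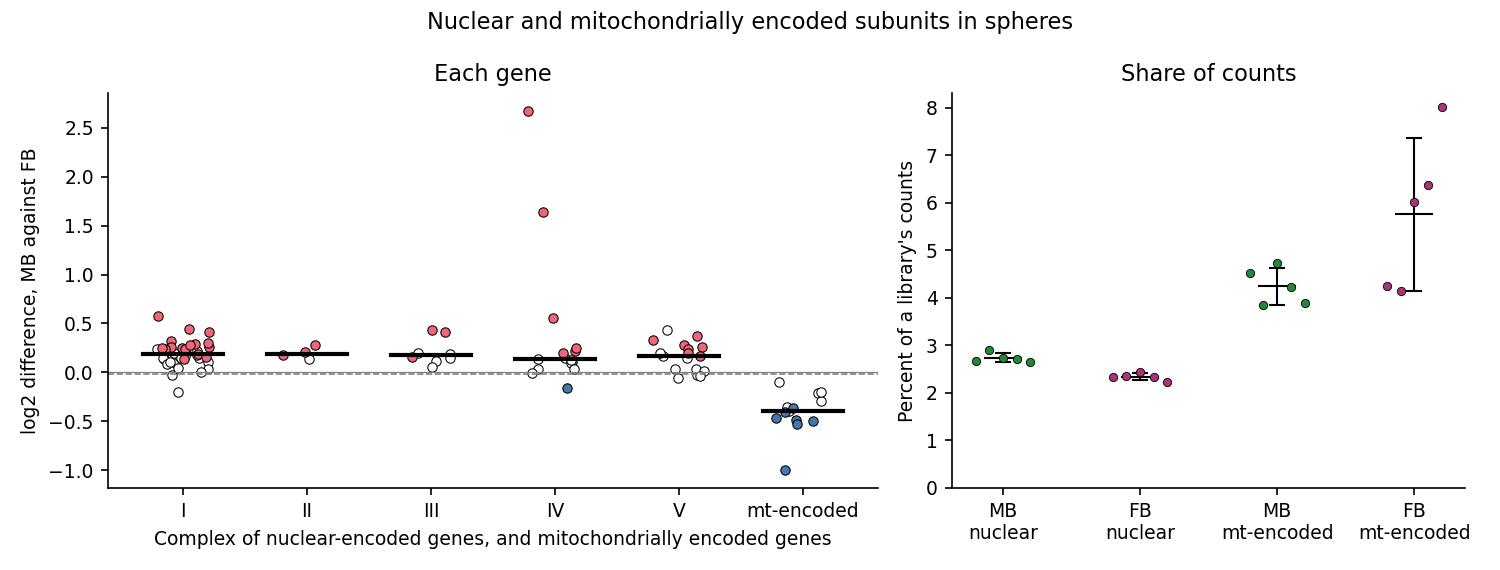
Left, log2 difference of MB against FB for each nuclear member by complex and for the 13 mitochondrially encoded genes (red higher, blue lower, white not passed, black bars medians, dashed line the median of all genes). Right, percent of a library's counts from nuclear members and from mitochondrially encoded genes, 1 point per library with mean and SD, where nuclear shares are 2.66% to 2.89% in MB and 2.23% to 2.44% in FB.

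Other lists in the spheres are set against the 15.3% of all genes that were higher and the 14.3% that were lower. Of 17 TCA cycle and pyruvate dehydrogenase genes 11 were higher (64.7%) and 0 lower (median 0.24), with Ogdh, a subunit of the oxoglutarate dehydrogenase complex, among those higher (0.56, adjusted p = 1.22e-06). The electron-transferring flavoproteins Etfa (0.49) and Etfb (0.58) and the coenzyme Q synthesis gene Coq9 (0.56) were higher, with 4 of 6 and 4 of 13 of their lists. Of 46 assembly factors 5 were higher (10.9%), Cox15 (0.51) among them, and 1 lower (Coa5, -0.24). Of 14 regulators of mitochondrial biogenesis 2 were higher (14.3%) and 1 lower, with a median of -0.06. Among them Ppargc1a, the coactivator PGC-1alpha, was higher (0.55, adjusted p = 0.00103) and its relative Pprc1 lower (-0.64, adjusted p = 0.00352). Of 12 hypoxia-response genes 7 were higher and 2 lower. Epas1 was higher, at 68.3 to 108 CPM against 12.4 to 25.6 (2.12, adjusted p = 3.17e-08). Adm (-0.72, edgeR adjusted p = 2.99e-05) and Egln3 (-1.04, edgeR adjusted p = 0.026) were lower. Of 92 cytosolic ribosomal proteins, the list added after the values were seen, 72 were lower (median -0.31), and of 78 mitochondrial ones 6 were higher and 3 lower. Astrocyte markers had a summed 7676 to 8015 CPM in MB and 4580 to 5146 in FB, and cell cycle markers 2353 to 2506 and 2869 to 3201, with 10 of 10 and 14 of 14 listed. Oligodendrocyte markers had a summed 2975 to 3652 CPM in MB and 3674 to 4177 in FB (10 of 10 listed), and mature neuron markers 69.0 to 97.2 and 92.7 to 115 (12 of 12 listed). Their part in the subunit differences was not tested.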

How the data were processed

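RNA from 20 captured and 10 sphere libraries was sequenced. The submitters' processing notes name STAR 2.3, Salmon 1.6.0, DESeq2 1.34.0, mm10 and GRCm39 without roles. The authors deposited the captured values with decimal commas and no stated unit, other than what the values show: they fall on steps that depend on gene length, as RPKM does. Sphere values are whole-number counts as the authors deposited them. The members and all gene lists were chosen with earlier results of these data known.

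Captured values were tested as log2(value + 1) with limma 3.58.1 (trend), with 1 mean per age over all 20 libraries, for genes listed at both ages compared. Sphere counts were tested with edgeR 4.0.16, its quasi-likelihood test on TMM-scaled counts after filterByExpr. The Benjamini-Hochberg adjustment ran over every gene tested in a comparison, with 0.05 as the threshold. Isoform shares were compared by two-sided exact permutation tests. Of 15139 captured rows, 142 with 11 repeated symbols were left out. The main tests used no pairing, since no label ties a replicate number to an animal or culture. Same-number libraries of compared groups had correlations from -0.148 to 0.25 in their deviations from the group means. These were not set against libraries of different numbers and cannot show that pairing is absent. Named were members that passed, up to 4 per complex and direction by p, isoforms, and the highest and lowest member of a complex. On simulated data with 4-fold changes 93.9% of changed genes were recovered for E18 against E13 (11797 genes) and 90.9% for the spheres (12673 genes). With 2-fold changes 44.8% and 73.1% were recovered, and with 1.5-fold changes 13.4% and 40.3%. For E13 against E11, P70 against E18 and P70 against E11, 1.5-fold changes were recovered in 14.9%, 8.96% and 14.9%. Each fold was given to 66 or 67 genes, far fewer than were called in the data, so the rates may differ there. Motifs were searched in RefSeq windows on GRCm38.p6 after shorter windows had been tried, and gene copies were counted on GENCODE models of the same build. Alternatives were other pseudocounts, filters and scalings, library weights, a replicate block and single libraries left out. For the spheres a full DESeq2 1.42.0 test was a further alternative. Results for some genes that the naming rule takes in are not reported here.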

Additional observations from a re-analysis of the deposited data

Results flagged for a closer look

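In 8 of 83 groups of libraries looked at, the highest or lowest library stood apart from the rest, where chance flags about 1 in 20 groups. The summed level of complex II was 1670.5 units in E13 replicate 4, with the next library at 1363. The summed level of complex III was 3454 CPM in MB replicate 2, with the next at 3172. Cox6b2 was at 78.7 units in E18 replicate 1 and Cox4i2 at 8.56 units in E18 replicate 3. Cox8b was at 4.63 CPM in FB replicate 3. Cox6a2 was at 25.2 units in P70 replicate 3 and at 0 in the other P70 libraries. Uqcrfs1 was highest at 422 CPM in MB replicate 2 and lowest at 319 CPM in FB replicate 4.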

How the results depend on the processing

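The fall of members between E13 and E18 held throughout, with 48 to 57 lower. For E13 against E11, members higher came to 16 and all genes called to 3766 with only the libraries of the 2 ages, and to 21 higher, 4 lower and 4836 called with library weights. With single libraries left out 2 to 4 were higher and 1 to 2 lower (1 without E11 replicate 3). For P70 against E18, 5 were higher and 5 lower with only the libraries of the 2 ages, 1 was lower with median-of-ratios scaling, 7 were higher with the replicate block and 7 without the 2 lowest-weight P70 libraries. With single libraries left out 7 to 15 were higher (7 without P70 replicate 6) and 5 to 14 lower (5 without E18 replicate 2 or 4, 6 without P70 replicate 3 or 4). For P70 against E11, median-of-ratios scaling gave 8 higher, 28 lower and a median of -0.2564. For the spheres, 0 were lower by RLE size factors, without a filter on low counts and with the replicate block, and 0 to 1 with single libraries left out. The causes were not tested. Leaving out the lowest-weight libraries and taking out mitochondrially encoded genes were chosen after seeing the data. Of the differences named, 23 changed sign in at least 1 alternative, 69 times in all, and 0 of these 23 had passed the test.

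With pseudocount 0.1, P70 against E11 gave Cox4i2 -0.3550. With pseudocount 5, P70 against E18 gave Cox4i2 0.0487. With library weights, P70 against E18 gave Uqcrc2 0.0132, Cox7b -0.0195 and Ndufa3 -0.0143, and P70 against E11 gave Cox4i2 -0.1562, Cox7b 0.0067 and Cox8a -0.0700. With median-of-ratios scaling, E18 against E13 gave Cox4i2 0.0435, and P70 against E18 gave Uqcrc2 0.1399, Sdhb 0.0450, Cox7a2 0.0723, Cox6a1 0.0687 and Atp5e 0.0461, and P70 against E11 gave Sdha 0.2620 and Cox7b 0.2611. With the replicate block, P70 against E18 gave Cox4i2 0.3484 and Cox7b -0.0729, and P70 against E11 gave Cox8a -0.0743 and Ndufa3 -0.0860. Without the 2 lowest-weight P70 libraries, P70 against E18 gave Cox4i2 0.1373 and Cox7b -0.0554, and P70 against E11 gave Cox8a -0.1392 and Ndufa3 -0.0083. Leaving out 1 library at a time put each of these log2 differences within the range given, from the lowest to the highest value. For E13 against E11 it put Cox4i2 from -0.0113 to 0.4278, Atp5g2 from -0.4243 to 0.1671 and Cox8a from -0.0078 to 0.1374. For P70 against E11 it put Cox4i2 from -0.2070 to 0.5513, Atp5g2 from -0.7387 to 0.0016, Sdha from -0.0455 to 0.0332, Cox7b from -0.1836 to 0.2200, Cox8a from -0.0815 to 0.1578 and Ndufa3 from -0.0857 to 0.1442. For E18 against E13 it put Cox4i2 from -0.1974 to 0.1336, Cox6b2 from -0.3490 to 0.0313 and Atp5g1 from -0.3469 to 0.0839. For P70 against E18 it put Cox4i2 from -0.4099 to 0.3484, Uqcrc2 from -0.0929 to 0.0634, Cox7b from -0.0956 to 0.3081 and Cox7a2 from -0.2692 to 0.0473. For MB against FB it put Atp5g1 from -0.0494 to 0.0241, Cox7b from -0.0093 to 0.0926 and Cox8a from -0.0017 to 0.0674.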
